A study of Homo sapiens with 2 samples.

Results

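A427 is a human line of non-small cell lung carcinoma, and its poly(A) RNA was examined here for 9 genes of the SLITRK and liprin families among the 23686 gene symbols of the deposited tables. The genes were chosen by family name and with their measured ratios between these libraries already known. Every ratio below is therefore a description, and no statistical test was run on it. They comprise 6 genes classed here as neuronal (SLITRK3, SLITRK4, SLITRK5, SLITRK6, PPFIA2 and PPFIA3) and 3 broadly expressed liprins (PPFIA1, PPFIBP1 and PPFIBP2). The study collected adherent cells and floating, sphere-forming cells of the line separately and sequenced 1 library of each. Both were grown in RPMI 1640 medium with fetal bovine serum, the labels give the genotype of both as wild type, and the series title calls the cells CTNNB1-mutated. The adherent library held 26384670 reads assigned to genes and the floating library 27148842. Neither growth form was replicated, so neither a p-value nor an SD is given, and intervals are 95% intervals of counting error alone.

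SLITRK proteins are membrane proteins with extracellular leucine-rich repeats that control neurite outgrowth and synapse formation. They bind across the synaptic cleft to LAR-type receptor tyrosine phosphatases. Liprins are cytoplasmic scaffolds that bind the inner domains of the same phosphatases. Liprin-alpha proteins organise the presynaptic active zone in neurons, and in other cells they act with liprin-beta proteins near focal adhesions at the cell edge.

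The first listed promoter windows of 4 members are shown, those of the 3 genes that were at least 2-fold lower in floating cells and of PPFIA1, the most abundant broadly expressed liprin. Each runs from 250 bases before to 50 bases after a transcript start in RefSeq on GRCh38.p14, and capitals mark CG dinucleotides. The windows are chr13:85799370-85799669 on the minus strand for SLITRK6, chr3:165197060-165197359 on the minus strand for SLITRK3, chr12:81759301-81759600 on the minus strand for PPFIA2 and chr11:70270440-70270739 on the plus strand for PPFIA1. The authors' build was hg19, so these positions do not apply to their alignments.
SLITRK6: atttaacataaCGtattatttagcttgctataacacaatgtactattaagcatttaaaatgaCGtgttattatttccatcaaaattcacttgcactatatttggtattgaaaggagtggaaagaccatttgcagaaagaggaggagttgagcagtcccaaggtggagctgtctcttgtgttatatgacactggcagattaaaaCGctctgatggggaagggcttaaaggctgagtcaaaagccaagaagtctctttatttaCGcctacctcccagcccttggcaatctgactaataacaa
SLITRK3: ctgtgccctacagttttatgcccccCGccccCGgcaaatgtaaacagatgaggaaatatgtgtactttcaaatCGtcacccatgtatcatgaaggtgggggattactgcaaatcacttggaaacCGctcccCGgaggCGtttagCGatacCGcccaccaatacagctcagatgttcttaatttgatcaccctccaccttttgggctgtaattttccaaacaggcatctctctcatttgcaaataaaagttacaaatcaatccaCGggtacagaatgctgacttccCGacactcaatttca
PPFIA2: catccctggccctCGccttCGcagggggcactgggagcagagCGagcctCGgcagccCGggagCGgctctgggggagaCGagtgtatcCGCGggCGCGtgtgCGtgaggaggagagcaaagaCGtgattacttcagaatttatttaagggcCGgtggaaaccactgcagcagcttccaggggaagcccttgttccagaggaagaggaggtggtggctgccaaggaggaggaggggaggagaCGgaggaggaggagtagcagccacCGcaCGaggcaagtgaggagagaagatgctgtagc
PPFIA1: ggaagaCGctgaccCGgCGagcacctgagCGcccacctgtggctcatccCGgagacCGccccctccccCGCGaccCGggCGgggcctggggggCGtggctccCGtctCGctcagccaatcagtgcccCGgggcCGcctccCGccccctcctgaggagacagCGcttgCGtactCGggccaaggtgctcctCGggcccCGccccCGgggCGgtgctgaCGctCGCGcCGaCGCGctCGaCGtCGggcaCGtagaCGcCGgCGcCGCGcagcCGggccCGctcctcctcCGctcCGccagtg

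The PPFIA1 window holds 42 CG dinucleotides, more than 94.2% of the 35116 windows in the RefSeq table. The SLITRK6 window holds 4, the first listed window of SLITRK3 10 and that of PPFIA2 17, against a median of 14 over all windows. The other windows do not follow this order. The second window of SLITRK3 has 21 and the other 2 of PPFIA2 have 0 each. Of the broadly expressed liprins, PPFIBP1 has 13 in its window and PPFIBP2 has 31, 8, 3, 4 and 2 in its 5. PPFIA3 has 23, the 3 windows of SLITRK5 have 18, 36 and 18, and those of SLITRK4 have 6, 25 and 25. The count of CG thus did not separate neuronal members from broadly expressed liprins. All 9 genes matched by symbol, with 20 windows in all. TATAAA, on either strand, occurs in 1 of the 20, the third listed window of PPFIA2, and in 11.5% of all windows. CCAAT, on either strand, occurs in 9 of the 20 and in 34.6% of all windows.

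Levels of the members are compared in TPM (transcripts per 1000000), which corrects for gene length. In adherent cells PPFIA1 was highest at 56.28 TPM (Poisson interval of its reads 54.4 to 58.2), followed by SLITRK3 at 50.83 TPM (48.9 to 52.8) and PPFIBP1 at 33.38 TPM (32.1 to 34.7). A gene best known from inhibitory synapses thus stood close to the ubiquitous liprin in an adherent lung carcinoma line. SLITRK6 was next at 24.82 TPM. SLITRK5 (9.79 TPM), PPFIA2 (9.75 TPM) and PPFIA3 (9.39 TPM) had overlapping intervals and cannot be ordered. PPFIBP2 lay at 5.86 TPM and SLITRK4 at 0.17 TPM.

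In floating cells the order was different. PPFIA1 (55.66 TPM) and PPFIBP1 (34.06 TPM) led, and SLITRK3 stood below both at 22.42 TPM (21.2 to 23.7). SLITRK6 was at 9.46 TPM. PPFIA3 (6.27 TPM), PPFIBP2 (5.76 TPM) and SLITRK5 (5.15 TPM) had overlapping intervals and cannot be ordered. PPFIA2 stood lower, at 2.72 TPM (2.32 to 3.17), above only SLITRK4 at 0.19 TPM.

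**Figure D1:**
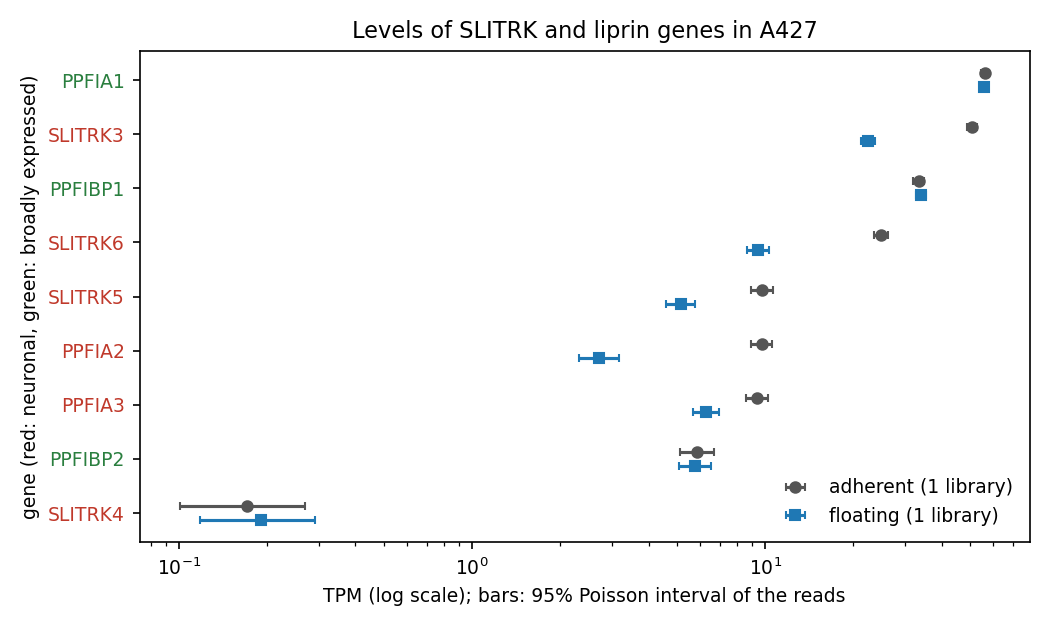
TPM on a log axis for the 9 genes in the adherent (circles) and the floating (squares) library, with 95% Poisson intervals of the reads. The points of PPFIA1, PPFIBP1 and PPFIBP2 nearly coincide, while SLITRK3 lies at 50.83 and 22.42 TPM, SLITRK6 at 24.82 and 9.46 TPM and PPFIA2 at 9.75 and 2.72 TPM.

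The floating library was compared with the adherent one by a log2 ratio on counts after TMM scaling (the trimmed mean of M values). The 13131 genes that reached 1 CPM (counts per 1000000, here about 26 adherent reads) in either library are called tested here. The word stands for this filter only and for no statistical test. Of the 9 members 8 were tested, and each of the 8 exceeded 1 CPM in both libraries. A gene is called lower or higher where the libraries were 2-fold or more apart and the counting interval did not include 0. PPFIA2, SLITRK6 and SLITRK3 were called lower, 3 of 8, and none was called higher. Over all tested genes 0.754% were called lower and 1.28% higher. Since the members were chosen with this comparison known, nothing is read from that contrast.

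Among the SLITRK genes, those with appreciable reads were all lower in floating cells. SLITRK6, known for its part in the development of the inner ear and the eye, had 1241 adherent and 505 floating reads. It was 2.54-fold lower (interval 2.29 to 2.83), a log2 ratio of -1.35, and the rank 38 from the lowest of the tested genes. SLITRK3, which induces inhibitory synapses through the phosphatase PTPRD, had 2568 and 1209 reads. It was 2.20-fold lower (interval 2.05 to 2.35), a log2 ratio of -1.14, with the most reads of the 6 neuronal members. SLITRK5, a SLITRK of striatal circuits, had 522 and 293 reads and was not called, at a log2 ratio of -0.88. Its fold of 1.84 had an interval of 1.59 to 2.13, which lies on both sides of 2-fold.

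The remaining SLITRK genes were near or below detection. SLITRK4, an X-linked member of the family, had 18 and 21 reads and was not tested. Its log2 ratio of 0.17 had an interval from -0.81 to 1.17, which reaches past 2-fold on the higher side but not on the lower side. SLITRK1 had 4 reads in each library. SLITRK2 had 0 reads in both, which allows at most 0.114 CPM (adherent) or 0.1102 CPM (floating).

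Summed over the 6 SLITRK genes, the levels were 85.67 TPM (adherent) and 37.28 TPM (floating). The makeup of that sum differed little between libraries. SLITRK3 made up 59.3% of the family's TPM in adherent and 60.1% in floating cells, SLITRK6 28.97% and 25.4%, and SLITRK5 11.4% and 13.8%.

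Of the liprin-alpha genes only PPFIA2 was called. PPFIA2, the liprin-alpha of synapses, had 566 adherent and 163 floating reads. Its floating level was 3.58-fold below the adherent one (interval 3.01 to 4.30), a log2 ratio of -1.84, and the rank 15 from the lowest of all tested genes. PPFIA3, a liprin-alpha found mainly in brain, had 533 and 380 reads and was 1.45-fold lower (interval 1.27 to 1.66), short of the 2-fold rule. PPFIA1, the liprin-alpha of most tissues and a partner of LAR at focal adhesions, had 3517 and 3643 reads. Its log2 ratio was 0.002, with an interval from -0.07 to 0.07. PPFIA4, a further family member that is mainly neuronal and is not among the 9 genes, had 154 and 136 reads, a log2 ratio of -0.23 and an interval from -0.57 to 0.11.

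A ratio taken within each library does not depend on the scaling between libraries. There were 16.1 PPFIA2 reads per 100 PPFIA1 reads in adherent and 4.47 in floating cells. These ratios were 3.60-fold apart (exact conditional interval 2.997 to 4.33). In TPM, PPFIA2 made up 12.5% of the 4 liprin-alpha genes in adherent and 4.08% in floating cells, while PPFIA1 made up 72.2% and 83.4%.

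The counting intervals of both liprin-beta genes included 0. PPFIBP1, whose protein pairs with liprin-alpha1 at the cell edge, had 2440 and 2657 reads, a log2 ratio of 0.07 and an interval from -0.01 to 0.15. PPFIBP2 had 227 and 251 reads, a log2 ratio of 0.10 and an interval from -0.17 to 0.36. On TPM its log2 ratio was -0.02, so its direction is not settled. KAZN, which encodes the liprin-like protein kazrin and is not among the 9 genes, had a log2 ratio of 0.06 (-0.09 to 0.22).

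**Figure D2:**
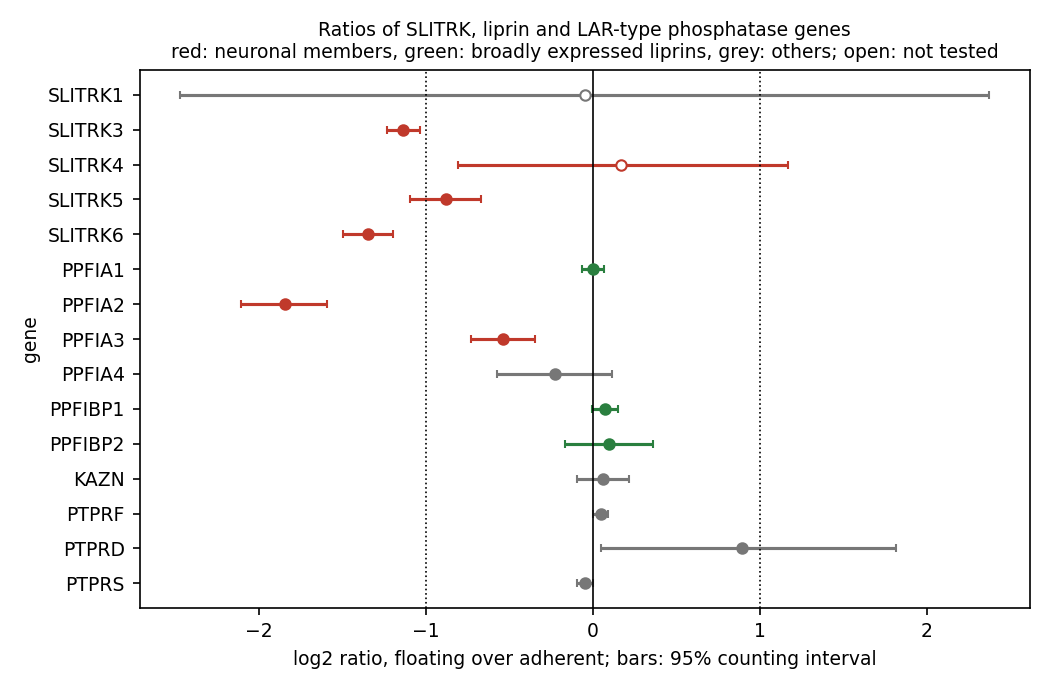
Log2 ratio of floating over adherent with 95% counting intervals for genes of the SLITRK and liprin families and the LAR-type phosphatases, with dotted lines at 2-fold and SLITRK2 left out for want of reads. PPFIA2 (-1.84), SLITRK6 (-1.35) and SLITRK3 (-1.14) lie beyond 2-fold on the lower side, and PPFIA1, PPFIBP1 and PPFIBP2 lie between 0.002 and 0.10.

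Set side by side, the 5 tested neuronal members had log2 ratios from -1.84 to -0.54 with a median of -1.14, and the 3 broadly expressed liprins had ratios from 0.002 to 0.10 with a median of 0.07. These 2 ranges, over tested members only, do not overlap. Counting intervals lay below 0 for all 5 tested neuronal members and included 0 for all 3 broadly expressed liprins. Over all 13131 tested genes the median was -0.005, 25.6% of intervals lay below 0 and 25.5% above. SLITRK4, the untested neuronal member, is outside these ranges and counts. Its log2 ratio of 0.17 (-0.81 to 1.17) lay above those of all 3 broadly expressed liprins. Also outside is PPFIA4, mainly neuronal but not among the 9 genes, whose interval included 0 (-0.23, -0.57 to 0.11). The genes share families and were picked with their values in view, so their number is no measure of replication.

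**Figure D3:**
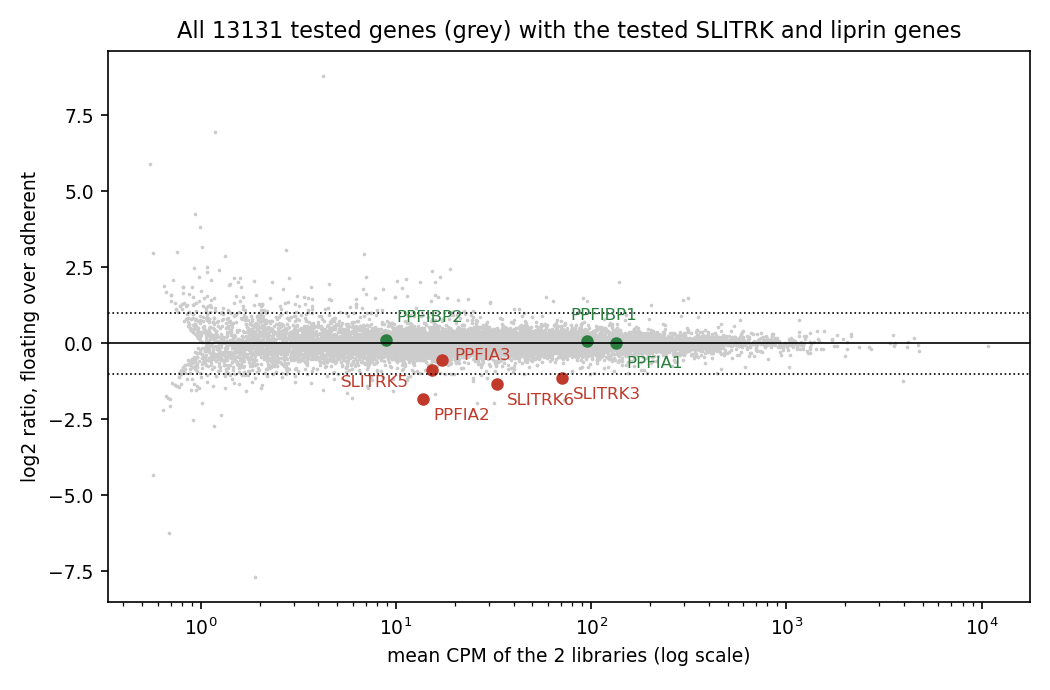
Log2 ratio of floating over adherent against the mean CPM of the libraries (log axis) for all 13131 tested genes in grey, with the 8 tested members in colour (red neuronal, green broadly expressed) and dotted lines at 2-fold. SLITRK3, SLITRK6 and PPFIA2 lie under the lower line, and the 3 broadly expressed liprins lie in the dense band around 0.

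The receptor phosphatases that SLITRK and liprin proteins bind were not called in either direction. PTPRF, which encodes LAR itself, was at 84.73 and 84.86 TPM, a log2 ratio of 0.05 (0.004 to 0.09). PTPRS was at 82.30 and 77.27 TPM, a log2 ratio of -0.05 (-0.10 to 0.002). PTPRD, the partner of SLITRK3, was near the floor with 18 and 35 reads and a log2 ratio of 0.89 (0.05 to 1.82). The line thus held abundant LAR and PTPRS transcripts in both growth forms and few of PTPRD.

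Other genes of synapses give the setting in which the members differed. Of 40 further synaptic adhesion organisers (neuroligins, neurexins, LRRTM, LRFN, FLRT, latrophilin, teneurin and related genes) 23 were tested and none was called. Their median log2 ratio was -0.34, with 12 of 23 intervals below 0 (52.2%) and 2 above (8.70%), against the 25.6% and 25.5% of all genes. This list and those below were chosen with earlier results of these data known. An interval also excludes 0 more readily for a gene with more reads, so nothing is read from such shares. LRRTM4, a leucine-rich repeat protein of excitatory synapses, was at 126.33 and 62.85 TPM and 1.95-fold lower (interval 1.86 to 2.04), just short of the rule. TENM3, a teneurin, was at 95 and 66.39 TPM (log2 ratio -0.47), and NLGN1, a neuroligin of excitatory synapses, at 83.35 and 52.70 TPM (-0.62). In the other direction FLRT2, with 98 and 202 reads, was 1.99-fold higher (1.56 to 2.56).

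Cytoplasmic partners of liprins were listed in 2 groups that share ERC1, and the second also holds the members PPFIA1 and PPFIBP1. Of 27 genes of the presynaptic active zone and of vesicle priming 21 were tested and none was called, with a median of -0.13, 12 intervals below 0 (57.1%) and 3 above (14.3%), beside 25.6% and 25.5% of all genes. The most abundant were GIT1, a scaffold that binds liprin-alpha (136.24 and 126.53 TPM, log2 ratio -0.06), and the motor KIF1A, which carries synaptic vesicle precursors (92.39 and 77.66 TPM, -0.20). UNC13A, the vesicle priming factor, was at 85.39 and 59.14 TPM (-0.48), and LIN7B, a scaffold of the CASK complex, had 108 and 59 reads (-0.92). Of 13 genes of the cortical complex in which PPFIA1 and PPFIBP1 act outside neurons, 12 were tested and none was called. Their median was -0.16, with 8 intervals below 0 (66.7%) and 1 above (8.33%), beside the same shares of all genes. PPFIA1 and PPFIBP1 count there among the intervals that included 0. TLN1, the integrin activator talin, was at 98.86 and 85.58 TPM (-0.16) and ERC1, the liprin partner ELKS, at 68.80 and 60.06 TPM (-0.15). KANK2, a talin-binding protein, was 1.78-fold lower (1.68 to 1.89), and PHLDB2, the membrane anchor of the complex, 1.35-fold higher (1.23 to 1.49).

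**Figure D4:**
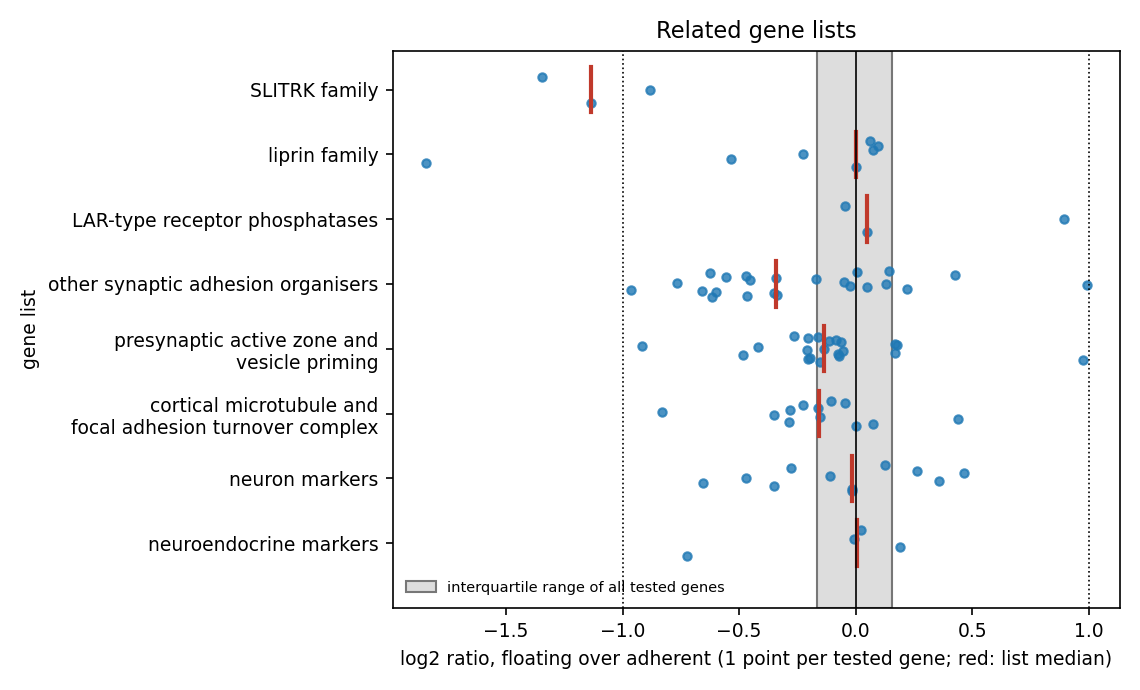
Log2 ratio of floating over adherent for the tested genes of 8 lists, 1 point per gene, with the list median in red, the interquartile range of all tested genes in grey and dotted lines at 2-fold. The 3 tested SLITRK genes have a median of -1.14, the liprin family 0.002, the other synaptic adhesion organisers -0.34 and the active zone genes -0.13.

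Markers of neurons were present in part and showed no common direction. Of 19 neuron markers 11 were tested, with 3 intervals below 0 (27.3%) and 2 above (18.2%), beside 25.6% and 25.5% of all tested genes. Their median was -0.02, and the 19 summed to 595.83 TPM (adherent) and 567.88 TPM (floating). TUBB3 (neuronal beta-tubulin) made up most of those sums (478.20 and 458.49 TPM). NEFH, a neurofilament, was at 30.91 and 35.99 TPM, while the synaptic vesicle protein gene SYP was lower (20.32 and 12.52 TPM, log2 ratio -0.65). The 6 markers STMN2, ELAVL3, ELAVL4, NEFM, GAP43 and SLC17A6 had 0 reads in both libraries. Of 10 neuroendocrine markers 4 were tested, with a median of 0.01 and sums of 583.59 and 560.46 TPM. UCHL1 made up most of those sums (568.73 and 549.66 TPM), and CHGB was at 9.40 and 5.52 TPM (log2 ratio -0.72). Of the epithelial markers, EPCAM (615.34 and 581.81 TPM) and the keratin genes KRT8 and KRT18 were abundant, whereas KRT7 (4 and 3 reads) and KRT19 (8 and 22 reads) were near the floor, as were the lung markers NKX2-1 (3 and 13 reads) and SFTPB (0 and 1 read). KRT8 was 1.83-fold (1.78 to 1.89) and KRT18 1.84-fold (1.78 to 1.91) higher in floating cells, while CDH1, the gene for E-cadherin, had a log2 ratio of -0.39 (-0.52 to -0.26). The 8 epithelial and lung markers summed to 1304 and 1791 TPM. The 7 immune and vascular markers summed to 19.9 and 33.8 TPM, most of it CD68, a lysosomal protein gene (16.88 and 31.46 TPM, log2 ratio 0.94, interval 0.75 to 1.13). PTPRC had 159 and 121 reads (-0.44, interval -0.80 to -0.09), VWF was called higher from 14 and 44 reads, and CD3E and CDH5 had 0 reads. Whether any of these markers has a part in the member ratios was not tested, and in bulk RNA fewer cells with a transcript and less transcript per cell cannot be told apart.

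The genes with ratios most like those of the lower members were sought by the distance in log2 ratio over the 2 libraries, among genes that reached 5 CPM in either library. Nearest to PPFIA2 were ID1 and ID2, inhibitors of basic helix-loop-helix factors (log2 ratios -1.87 and -1.95), and the pro-apoptotic gene BMF (-1.81). Nearest to SLITRK6 were PCDH17, a protocadherin (-1.32), NDNF, a secreted neurite growth factor (-1.41), and EPHA5, an ephrin receptor of axon guidance (-1.25). With 2 libraries such likeness holds 1 ratio per gene and no more.

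The families differ in the number of coding exons. In GENCODE release 29 the coding sequence of each of the 4 SLITRK members lies in 1 exon, whereas those of the liprin members are spread over 23 to 30 exons. No deposited estimate of a member has decimals, and the share over all genes was not counted. The effective length implied by reads and TPM, relative to all genes, was compared between floating and adherent cells. In floating cells it was 0.97 times as long for PPFIA2, 0.98 times for PPFIA1 and 1.05 times for PPFIBP2. For SLITRK3, SLITRK5, SLITRK6, PPFIA3 and PPFIBP1 the value was 1.00. GC content of the longest transcript overlapped between the families. It was 33.8% for SLITRK5, 35.5% for SLITRK4, 37.1% for SLITRK6 and 46.1% for SLITRK3. Among the liprins it was 40.3% for PPFIA2, 42.7% for PPFIBP1, 47.7% for PPFIA1, 53.9% for PPFIBP2 and 64.6% for PPFIA3, and the median over tested genes was 48.3%.

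Chromosomal neighbours, by RefSeq order on GRCh38.p14, differed among the members. SLITRK1 (4 reads in each library) is the protein-coding neighbour of SLITRK6 (1241 and 505 reads) at the lower coordinate on chromosome 13. The neighbour at the higher coordinate, LOC124900338, had no values. SLITRK5, with a log2 ratio of -0.88, lies on chromosome 13 as well. BCHE, which encodes butyrylcholinesterase and neighbours SLITRK3 on chromosome 3, was at 883.89 and 602.25 TPM (log2 ratio -0.51, interval -0.54 to -0.48), lower in floating cells but short of the rule. CCDC59, next to PPFIA2 on chromosome 12, was higher, at 39.61 and 47.19 TPM (0.30, interval 0.16 to 0.45). PPFIA1 lies between FADD (0.16) and CTTN (-0.13) on chromosome 11. ACSS3, which overlaps exons of PPFIA2 on the opposite strand in GENCODE release 29, had 3 and 2 reads. The antisense gene PPFIA2-AS1 shares exon bases with PPFIA2 as well and was not analysed here. PPFIA1 likewise shares exon bases with AP000487.1 and AP002336.3 on the opposite strand, whose reads are not given here. The use of strand in counting was not stated in the labels.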

How the data were processed

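Poly(A) RNA of adherent and of floating A427 cells was sequenced, with DNase treatment at extraction and a KAPA mRNA kit for the libraries per the labels' protocols. The authors deposited estimated counts per gene symbol, without normalization, and a second table of TPM, scaled by the authors to a sum of about 1000000 per library. FastQC 0.11.1, STAR 2.5.3a, RSEM 1.3.3 and hg19 are named per the submitters' processing notes. For annotation, settings and strand: not given in the sources used here.

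Estimated counts were rounded and scaled by TMM in edgeR 4.0.16 under R 4.3.3, over all genes. The log2 ratio uses a prior count of 0.5. Its interval is the exact Clopper-Pearson interval at 95%, conditional on the gene's summed reads, and reads without molecular identifiers are not independent molecules. A count of 0 is given a limit of 3 reads. With 1 library per group no test was run in edgeR or DESeq2. The calculation was checked on simulated counts that held Poisson counting error only, so the check does not cover the spread between cultures. Ratios were recomputed with the upper quartile, library totals, size factors of DESeq2 1.42.0, TPM + 0.1 and other priors, filters and thresholds, and, added after the data were seen, with the trend over effective length or GC content removed. The members and the 10 gene lists were chosen with earlier results of these data known. Named are all members, their families, the LAR-type phosphatases, up to 4 called genes per direction in each other list or else its 2 most abundant genes, and the 3 genes nearest in ratio to PPFIA2 and to SLITRK6. NLGN1, FLRT2, UNC13A, LIN7B, KANK2, PHLDB2, SYP, KRT8, CDH1, CD68, PTPRC, markers at the floor and chromosomal neighbours were named after their values were seen. Older symbols were matched through the RefSeq table for 1 active zone gene and 3 adhesion organisers. Python 3.11.15, numpy 2.4.6, scipy 1.17.1 and pandas 2.3.3 were used.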

Additional observations from a re-analysis of the deposited data

How the results depend on the processing

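The same 3 members, PPFIA2, SLITRK6 and SLITRK3, were called lower and none higher under every alternative run except the fold thresholds: at 1.5-fold SLITRK5 was called too, and at 4-fold 0 members were called. Over the 9 alternatives that give a ratio, log2 ratios ranged from -1.86 to -1.80 for PPFIA2, -1.38 to -1.31 for SLITRK6, -1.18 to -1.10 for SLITRK3, -0.91 to -0.84 for SLITRK5 and -0.58 to -0.50 for PPFIA3. Changing the filter left these ratios as they were, and leaving out the counting interval could not remove a call. The median of the neuronal members was -1.01 with no filter, which adds SLITRK4. The median of the broadly expressed liprins was -0.016 on TPM, so their small ratios have no settled direction. A minimum of 5 CPM left 41 of all genes called lower and 64 higher, against 99 and 168, no filter gave 164 and 286, a 1.5-fold threshold 381 and 426, and a 4-fold threshold 8 and 32. GC content was found for 97.0% of tested genes. Depth limits SLITRK1, SLITRK2 and SLITRK4, which had at most 21 reads in a library. With 1 library per growth form, the spread between cultures is unknown.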
